A study of Mus musculus with 18 samples.

Results

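The regions described here are 509 stretches of chromatin in mouse macrophages that became more accessible with polyI:C but not with CpG, LPS or TNF, and that were still more accessible when polyI:C had been replaced by another stimulus. They make up 0.946% of the 53796 regions measured. A region was taken when its mean level, in log2 CPM (reads scaled to library depth), was at least 0.8 higher in polyI:C-treated than in untreated cells, rose by less than 0.4 with each of CpG, LPS and TNF, and was at least 0.5 higher after polyI:C followed by LPS than after LPS alone, and after polyI:C followed by TNF than after TNF alone. The regions were thus chosen by these 6 measured differences, which are given below as descriptions without a test.

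ATAC-seq, which tags open DNA with a transposase, was run on macrophages grown with M-CSF (20 ng/mL) from the bone marrow of wild-type C57BL/6 mice. Every group had a first treatment of 4 h, a change of medium, and a second treatment of 4 h, and each of the 9 groups had 2 libraries. A group's 2 letters give its treatments in order: C is CpG (100 nM, a DNA ligand of TLR9), L is LPS (1 ng/mL, a bacterial ligand of TLR4), P is polyI:C (1 µg/mL), T is TNF (10 ng/mL) and M is medium. MM received medium at both steps, MC, ML, MP and MT received medium and then one stimulus, CL and CT received CpG before LPS or TNF, and PL and PT received polyI:C before LPS or TNF. In MP the polyI:C was present until harvest, whereas in PL and PT it had been replaced 4 h earlier. No group used here received polyI:C and then medium alone. The labels do not say whether the libraries of a group came from separate animals or cultures, so p-values measure the spread between libraries, which may be technical.

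PolyI:C is a synthetic double-stranded RNA that stands in for viral RNA. In macrophages it is sensed in endosomes by TLR3, which signals through the adaptor TRIF, and in the cytosol by RIG-I-like receptors. Both routes activate the factors IRF3 and NF-kB and lead to type I interferon, which acts back on the cells through JAK kinases and STAT factors. Enhancers opened by such a signal may close when it ends or stay accessible, and accessibility that outlasts a stimulus is one of the features studied as innate immune memory.

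Few of the regions lay at gene starts, and the promoters that did are shown here because they are the DNA under these regions that the reference holds. Of the RefSeq promoter windows of GRCm38 (250 bases before to 50 bases after a start), 9 windows of 9 genes shared at least 100 bases with a region of the set. They belonged to Klrk1, Nod1, Cysltr2, Ncoa7, Enpp4 and 4 predicted genes. Klrk1 encodes the activating receptor NKG2D, Ncoa7 a nuclear receptor coactivator with an interferon-induced short form, and Cysltr2 a receptor for cysteinyl leukotrienes. The windows of these 3 genes are printed 5′ to 3′ on the minus strand, at chr6:129623815-129624114 for Klrk1, chr10:30655818-30656117 for Ncoa7 and chr14:73049065-73049364 for Cysltr2, with matches to the motifs searched in capitals.
Klrk1: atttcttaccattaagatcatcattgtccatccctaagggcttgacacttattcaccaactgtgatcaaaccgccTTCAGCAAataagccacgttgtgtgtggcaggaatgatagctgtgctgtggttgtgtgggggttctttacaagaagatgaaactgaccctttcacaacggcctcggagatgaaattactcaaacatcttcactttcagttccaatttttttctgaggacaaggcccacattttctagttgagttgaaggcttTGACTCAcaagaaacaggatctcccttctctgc
Ncoa7: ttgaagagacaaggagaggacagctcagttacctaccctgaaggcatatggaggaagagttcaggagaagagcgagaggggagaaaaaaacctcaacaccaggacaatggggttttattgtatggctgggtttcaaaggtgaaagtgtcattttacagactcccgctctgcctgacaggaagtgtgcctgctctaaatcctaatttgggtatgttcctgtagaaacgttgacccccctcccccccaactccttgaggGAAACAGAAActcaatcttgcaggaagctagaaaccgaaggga
Cysltr2: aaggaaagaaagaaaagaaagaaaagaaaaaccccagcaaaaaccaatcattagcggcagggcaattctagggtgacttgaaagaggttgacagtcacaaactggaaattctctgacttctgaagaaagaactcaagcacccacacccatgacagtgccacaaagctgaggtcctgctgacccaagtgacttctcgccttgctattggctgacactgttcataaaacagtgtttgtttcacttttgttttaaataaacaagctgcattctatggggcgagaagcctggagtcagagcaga

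The interferon response element, 2 copies of GAAA with any 2 bases between them, was searched on both strands and was in 1 of the 9 windows. That match, GAAACAGAAA, was at position 8 of Ncoa7, on the strand printed above, with the start as position 1. Among all 10398 promoter windows that overlapped a measured region 3.26% held the element, among all 32851 windows 3.44% did, and among the 264 windows at regions at least 0.8 higher with polyI:C 23.1% did. The AP-1 motif, TGANTCA, was in the Klrk1 window only, as TGACTCA at position 18, against 5.3% of windows that overlapped a region and 18.2% of those at regions at least 0.8 higher with polyI:C. The C/EBP motif, TTGCNNAA, was also in the Klrk1 window only, as TTCAGCAA at position -175, a match on the other strand, against 8.43% and 11.7%. The interferon element with 3 copies of GAAA, the STAT motif TTCNNNGAA, the NF-kB motif GGGANTTCC and a longer form of it, the CRE motif TGACGTCA, the ETS motif GAGGAAGT and the C/EBP motif TTGCGCAA were in 0 of the 9 windows. The 2-copy interferon element is contained in the 3-copy one, and each TTGCGCAA is also a TTGCNNAA. The 9 windows had a median GC content of 48.3% and a median of 4 CpG dinucleotides, against 61.7% and 22 in windows that overlapped any region, and 51.7% and 6 in the 264 windows at regions at least 0.8 higher with polyI:C. With 9 windows these shares are a description of these promoters and not of the 509 regions.

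At the Klrk1 promoter (chr6:129623704-129624205) accessibility was 1.35 and 2.13 log2 CPM in MM, 1.89 and 1.31 in MC, 1.09 and 1.46 in ML, and 1.39 and 1.64 in MT. It was 4.00 and 3.95 in MP, 3.04 and 3.13 in PL, 3.14 and 3.48 in PT, 2.75 and 2.21 in CL, and 1.79 and 2.06 in CT. The 6 libraries that received polyI:C all lay above the other 12. Klrk1 belongs to a family of similar genes, and how reads that fit several places were treated is not given in the sources used here. At the Ncoa7 start (chr10:30655599-30656100) the values were 3.25 and 3.78 in MM, 4.53 and 4.34 in MP, 3.92 and 4.21 in PL, and 4.26 and 4.48 in PT, against 3.05 to 3.90 in the 10 libraries of MC, ML, MT, CL and CT. The polyI:C libraries again did not overlap the others, but from a level that was already higher in medium. At Cysltr2 (chr14:73048917-73049418) they were 2.51 and 2.41 in MM, 3.61 and 3.17 in MP, 2.92 and 3.33 in PL, and 3.07 and 2.79 in PT. There 1 library each of MC and CT, at 2.97 and 2.94, lay within the range of the PL and PT libraries.

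Depth was 3141641 to 5986835 reads in regions. The files hold log2 values, from which whole reads per region were recovered in all libraries. Reads of the MP pair agreed within counting noise (chi-square per region 1.00, against 1.07 to 2.71 in other pairs), so they may be 1 library and entered the fits as 1 sample, except under one alternative. The 2 PT libraries agreed least, with a correlation over regions of 0.919 against 0.958 to 0.973 in the other groups. With PT replicate 1 left out the rule took 481 regions, of which 473 were among the 509, and with PT replicate 2 left out it took 507, of which 480 were. Without MP replicate 1 it took 522 regions and without MP replicate 2 it took 515. The set changed most when an MM library was left out. Without MM replicate 1 the rule took 505 regions, of which 344 were among the 509. Without MM replicate 2 it took 495, of which 338 were. Leaving out any other single library that the rule used kept 422 to 481 of the 509. Quantile normalization took 758 regions, of which 296 were among the 509, so many single memberships depend on the scaling.

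The rule removed most of what polyI:C opened. Of all regions, 6642 (12.3%) were at least 0.8 higher in MP than in MM, and 5788 of these were at least 0.4 above MM with another single stimulus, 5300 with CpG, 4731 with LPS and 3778 with TNF. This left 854 regions that answered to polyI:C alone. Of these, 509 (59.6%) passed both later conditions, 79 failed only with LPS second, 71 failed only with TNF second, and 195 (22.8%) failed both. The last class is used below as the nearest comparison, and it too was set by the same values.

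Accessibility at the 509 regions was low in untreated cells. MM was part of the rule, so the low start may in part follow from the choice of regions, which was not tested. By mean level over all libraries, 200 of the 509 were at or above the 25th percentile of all regions. The median level was 2.44 log2 CPM in MM, 2.56 in MC, 2.36 in ML and 2.41 in MT, against medians of 3.68 to 3.77 over all regions in every group. It was 3.68 in MP, the level of a typical region, and 3.38 in PL and 3.48 in PT. By library, the median region held 27 and 16 reads in MM and 69 and 59 in MP, then 45 and 46 in PL and 51 and 37 in PT. The log2 values carry a prior of 3 reads on average, which draws regions with few reads toward each other and makes the differences given here smaller than those of the reads themselves.

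**Figure D1:**
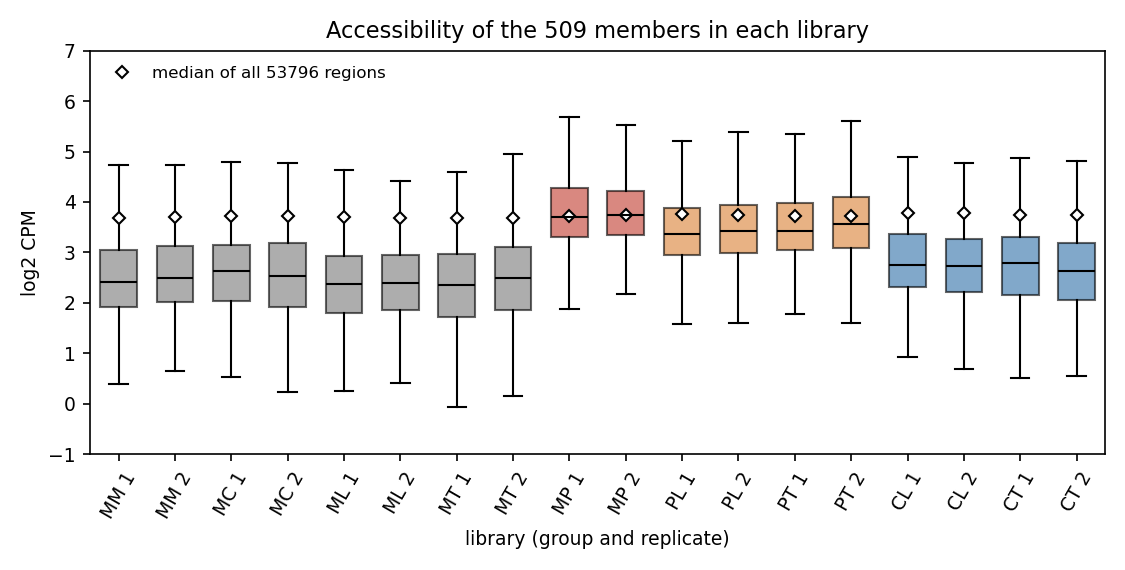
Levels of the 509 regions in each of the 18 libraries (log2 CPM), with boxes over the quartiles, whiskers to 1.5 times the box length and diamonds at the median of all regions. The MP, PL and PT libraries have medians of 3.37 to 3.74, and the other 12 libraries have medians of 2.36 to 2.78.

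The difference between MP and MM had a median of 1.16 (range 0.80 to 3.58), and the differences with a second stimulus are set beside it. PL minus ML had a median of 0.998 (range 0.501 to 2.72) and PT minus MT a median of 1.04 (range 0.506 to 2.77). Over all regions the medians were -0.00862, 0.024 and 0.00412. Both MP libraries lay above both MM libraries at 508 of the 509 regions, against 34.2% of all regions, both PL above both ML at 505, against 35%, and both PT above both MT at 502, against 30.2%. These counts follow from the rule. At the threshold, the regions just inside it lay near Tgfbi (MP minus MM 0.8007), Zdhhc17 (0.8019) and Lrmda (0.8029), and those just outside it near Zkscan5 (0.7996), Vrk2 (0.7987) and Dennd5a (0.7908).

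The later levels can be set against those under polyI:C, although the rule asked for a larger difference in MP than later and so favoured high MP levels. PL was below MP by a median of 0.338 on the log2 scale (PL minus MP -0.338) and above it at 127 of the 509 regions. PT minus MP had a median of -0.25 and was above 0 at 154 regions. Both MP libraries were above both PL libraries at 308 regions, against 30.6% of all regions, and above both PT libraries at 255, against 30.4%. The highest group mean was in MP at 325 regions, in PT at 118, in PL at 65 and in CT at 1, near Ap2a2, which encodes a subunit of the AP-2 clathrin adaptor.

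**Figure D2:**
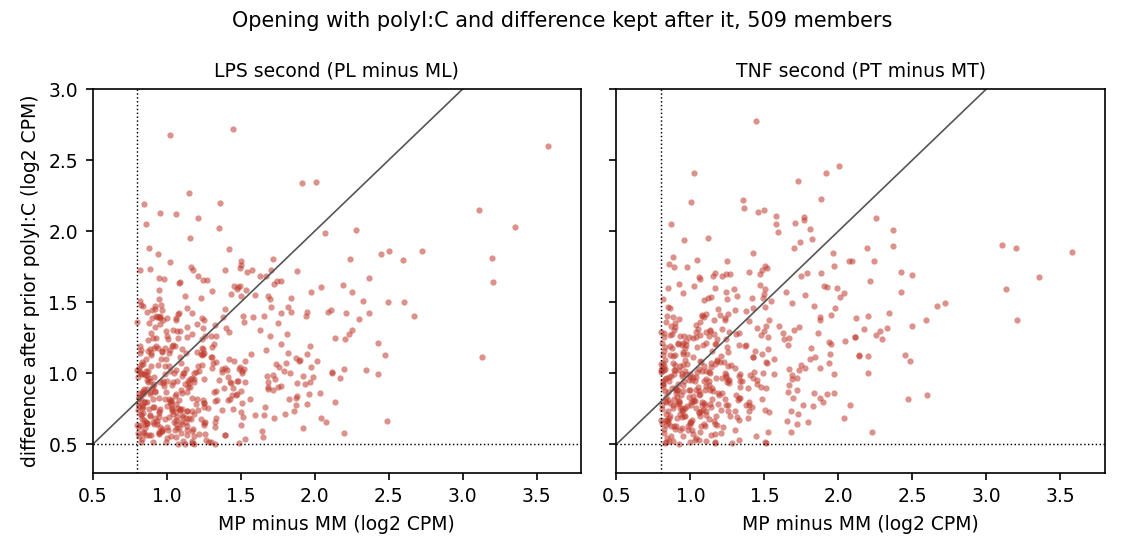
MP minus MM on the horizontal axis against PL minus ML and PT minus MT on the vertical axes (log2 CPM differences of group means), 1 point per region. The rule sets the lower edges at 0.8 and 0.5, and points above the diagonal kept a larger difference with the second stimulus than they had with polyI:C alone.

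Because the same libraries chose the regions and gave these medians, the rule was also applied to the libraries of one replicate number and the regions described in the other. Replicate 1 libraries gave 478 regions, whose medians in the replicate 2 libraries were 1.28 for MP minus MM, 0.956 for PL minus ML and 0.964 for PT minus MT, with 472, 473 and 458 of them above 0. Over all regions 50.1%, 52.1% and 50.6% were above 0 in those libraries. Replicate 2 libraries gave 449 regions, with medians of 1.32, 1.02 and 1.08 in the replicate 1 libraries. The lack of a response to CpG held less well, with medians for MC minus MM of 0.218 and 0.32 in the libraries not used. All conditions together were met in the other libraries by 129 of the 478 regions (27%) and 129 of the 449 (28.7%), against 0.835% and 0.889% of all regions. These are the same 129 regions reached from either side, and the condition on MP is part of the count. The MP values here are not independent if the 2 MP libraries are 1 library.

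The regions were mostly distal, as were other regions higher with polyI:C. Within 1 kb of an end of a protein-coding gene lay 34 of the 509 (6.68%), against 24.9% of all regions, 9.89% of the 6642 regions at least 0.8 higher in MP, and 39 of the 195 (20%) that failed both later conditions. Inside genes lay 271 (53.2%), between genes 139 (27.3%), and over 50 kb from any protein-coding gene 65 (12.8%). Over the 6642 regions these shares were 50.6%, 29.1% and 10.4%, and over all regions 43%, 22.9% and 9.19%. The farthest, at chr12:115010960-115011461, was 1036.3 kb from the nearest protein-coding gene, and 7 of the 65 far regions lay inside a gene annotated as a long noncoding RNA. The median distance to a RefSeq gene start was 20.9 kb, against 17.8 kb for the 6642 regions, 11.2 kb for the 195 and 12 kb for all regions, leaving out chromosome 18, which the promoter table used here does not cover. Starts of single genes may be missing elsewhere too. A region inside Rad21, 12 kb from an end of that gene, was 3.261e+05 bases from the nearest listed start.

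**Figure D3:**
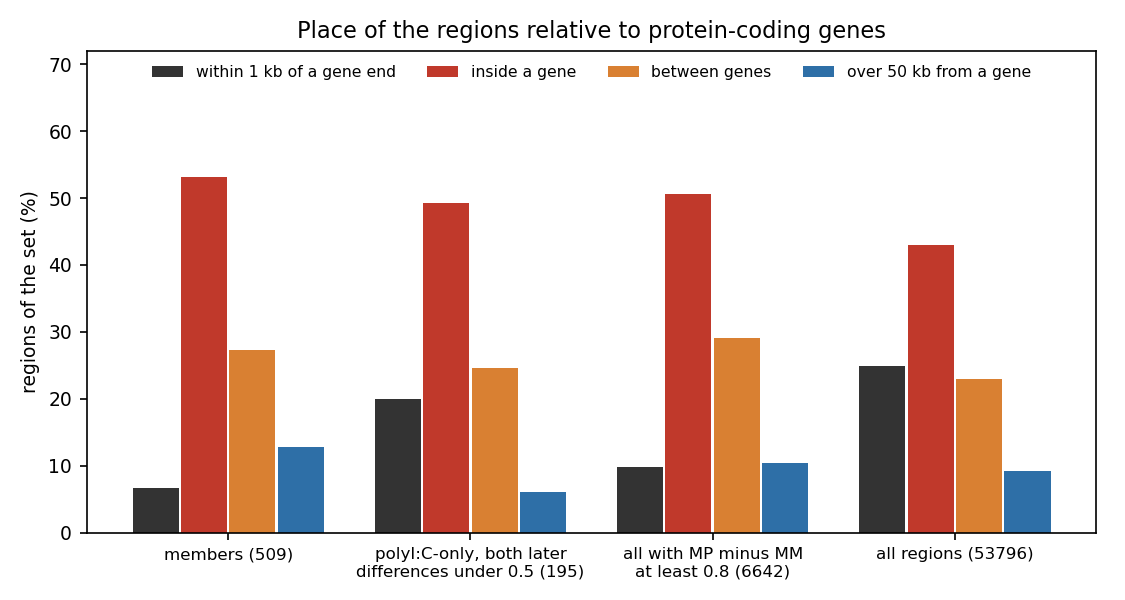
Share of regions (percent) by place relative to protein-coding genes, for the 509 regions, the 195 that failed both later conditions, the 6642 regions at least 0.8 higher in MP, and all regions. The 509 have the smallest share within 1 kb of a gene end, 6.68%, and 53.2% inside genes.

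Chromosome 3 held the most, 53 regions or 17.9 per 1000 measured there, followed by chromosome 2 with 51 (11.6 per 1000), while the X chromosome held 4 (3.93 per 1000). With no other region of the set within 25 kb stood 468 of them, and the other 41 formed 19 runs of up to 3. By the nearest protein-coding gene within 50 kb, 444 regions were assigned to 410 genes, 380 of which had 1 region. Distance says nothing of which gene is regulated from a region.

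The 4 genes with 3 regions each were Galnt7, Gna13, Ppm1l and Sestd1, out of 18, 14, 12 and 17 measured regions. Galnt7 encodes an enzyme that starts or extends O-linked glycans, and its 3 regions fell within 5.21 kb inside the gene, with MP minus MM of 1.23, 1.06 and 0.90. The middle of these (chr8:57589083-57589584) was at 4.84 and 5.13 log2 CPM in MM, 5.93 and 5.85 in MP, 5.17 and 5.25 in PL, and 5.54 and 5.53 in PT, so it started high and kept 0.52 over ML and 0.63 over MT. Gna13 encodes a G protein alpha subunit, and its 3 regions spanned 12.8 kb with MP minus MM of 1.07, 0.96 and 0.83. Ppm1l encodes a protein phosphatase that acts on stress kinases, and its 3 regions spanned 14.9 kb. They differed widely, with MP minus MM of 3.21 at chr3:69453426-69453927 and of 0.96 and 0.84 at the rest.

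The largest difference between MP and MM was inside Cmpk2, an interferon-stimulated gene for a mitochondrial nucleotide kinase, at chr12:26476456-26476957. It was at 1.01 and 0.31 log2 CPM in MM (8 and 2 reads), 1.31 and 0.63 in MC, -0.31 and 0.20 in ML, 0.36 and 0.45 in MT, 1.77 and 0.50 in CL, and -0.29 and 0.17 in CT. It was at 4.32 and 4.16 in MP (107 and 80 reads), 2.64 and 2.45 in PL, and 2.44 and 2.08 in PT. The 6 polyI:C libraries lay above the other 12, with those of MP above those of PL and PT. MP exceeded MM by 3.58 ± 0.52 (SE), PL exceeded ML by 2.60 ± 0.42 and PT exceeded MT by 1.85 ± 0.42. A second Cmpk2 region, 4.36 kb outside the gene, was 2.04 higher in MP than in MM but only 0.68 higher in PL than in ML and 0.69 higher in PT than in MT. Under quantile normalization those later differences were 0.25 and 0.30, below the limit of 0.5.

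Tmpo, which encodes lamina-associated proteins of the nuclear envelope, had a region 24.8 kb away (chr10:91206504-91207005) at 1.24 and 0.90 log2 CPM in MM, 4.40 and 4.46 in MP, 2.64 and 2.81 in PL, and 2.44 and 2.52 in PT. The other 10 libraries ranged from 0.25 to 1.72, below every polyI:C library. Within 1 kb of the end of Nat10, which encodes an RNA acetyltransferase, the region chr2:103721749-103722250 was at 0.88 and 0.90 in MM, 3.97 and 4.03 in MP, 3.00 and 2.85 in PL, and 2.14 and 2.92 in PT, with the 10 other libraries between -0.02 and 1.08. Inside Dtd1, which encodes an enzyme that removes D-amino acids from tRNA, a region (chr2:144714575-144715076) had 2.16 and 2.13 in MM, 5.38 and 5.18 in MP, 3.31 and 3.33 in PL, and 3.61 and 3.52 in PT. MP was here higher than PL and PT by more than 1.5 on the log2 scale in every library pair. MP minus MM was 3.35 ± 0.43 at Tmpo, 3.11 ± 0.47 at Nat10 and 3.13 ± 0.32 at Dtd1 (SE). At Tmpo PT minus MT was 1.68, and 1.11 under quantile normalization.

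Of the other regions with the largest MP minus MM, that inside Pdgfc, a growth factor gene, differed by 3.20 ± 0.48, and that 1.40 kb from Sct, the secretin gene, by 2.67. Fndc3a (2.60) and Sub1, a transcription coactivator gene (2.59), followed. One was over 50 kb from any protein-coding gene, at chr11:26711199-26711700, and differed by 2.72.

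Other regions were highest after the second stimulus. Inside Rad21, which encodes a cohesin subunit, the region chr15:51978477-51978978 was at 0.88 and 0.90 log2 CPM in MM and 2.31 and 2.36 in MP, and at 3.67 and 3.27 in PL and 3.49 and 3.52 in PT. LPS alone gave 1.09 and 0.41 and TNF alone 1.30 and 0.16, so neither second stimulus by itself reached the MP level. PL minus ML was 2.72 ± 0.36 and PT minus MT 2.77 ± 0.36 (SE), against 1.45 ± 0.44 for MP minus MM, which was 0.69 under quantile normalization. Inside Serpinb9, which encodes an inhibitor of granzyme B, the region chr13:33001639-33002140 held its level, with 3.07 and 2.95 in MP, 3.43 and 3.33 in PL, and 3.38 and 3.59 in PT, from 0.88 and 1.12 in MM. A second region inside Dtd1 (chr2:144744640-144745141) did so too, at 3.25 and 2.95 in MP, 3.18 and 3.13 in PL, and 2.93 and 3.44 in PT, unlike its neighbour described above. Under quantile normalization MP minus MM was 1.28 at Serpinb9 and 1.23 at this Dtd1 region, against 2.01 and 1.91 as deposited.

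Birc6, which encodes a large inhibitor-of-apoptosis protein with ubiquitin-conjugating activity, held a region (chr17:74669962-74670463) at 0.88 and 1.12 log2 CPM in MM, 0.89 and 0.94 in MC, 0.65 and 1.26 in ML, and 0.70 and 0.90 in MT. It was at 1.89 and 2.17 in MP, 3.43 and 3.83 in PL, and 3.14 and 3.27 in PT. It was also at 2.91 and 3.23 in CL and 2.28 and 2.71 in CT, so all 8 libraries with a first stimulus lay above all 10 with medium first. Alpk1, whose product is a kinase that senses a bacterial sugar, had a like region (chr3:127734656-127735157) at 2.36 and 2.59 in MP, 3.77 and 3.79 in PL, 3.35 and 3.31 in PT, 2.80 and 3.20 in CL, and 2.65 and 2.12 in CT, with 0.69 to 2.10 in MM, MC, ML and MT. Under quantile normalization MP minus MM fell below the limit of 0.8 at both, from 1.02 to 0.30 at Birc6 and from 0.96 to 0.42 at Alpk1.

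**Figure D4:**
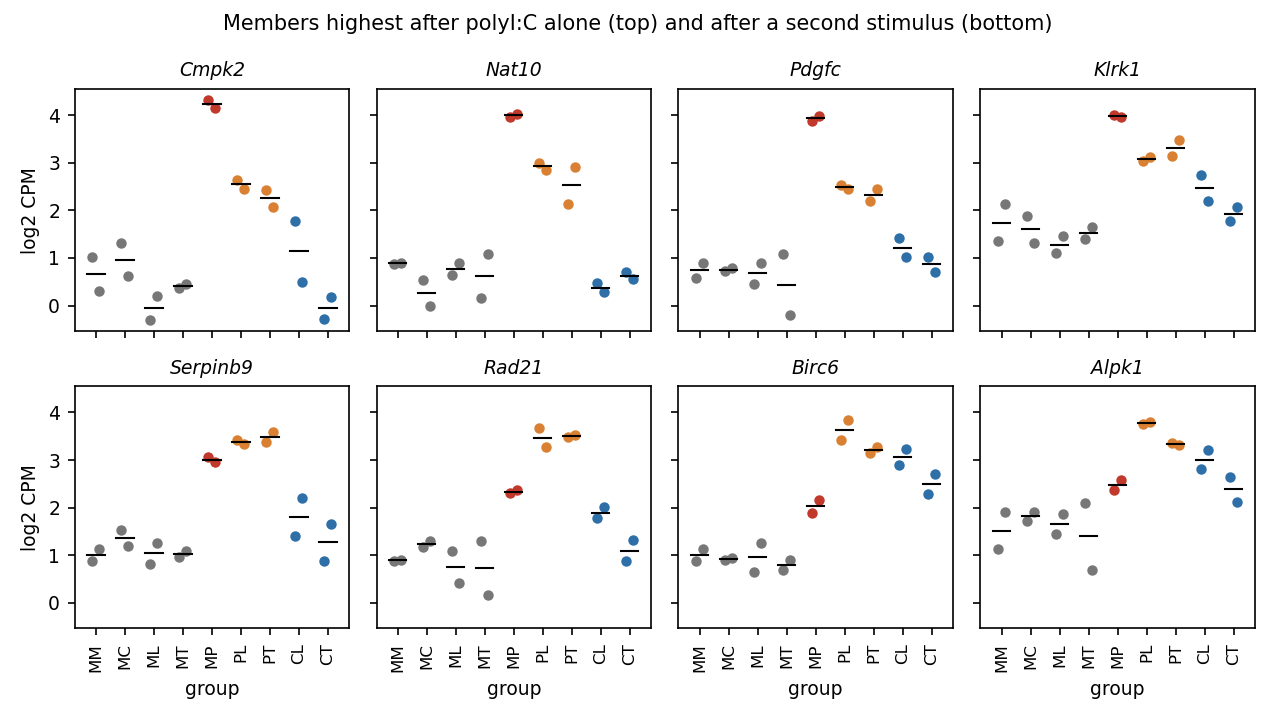
Levels (log2 CPM) in all 18 libraries at regions near named genes, 1 point per library, with lines at the means of the groups. The upper panels show regions highest with polyI:C alone, such as Cmpk2 with 4.32 and 4.16 in MP, and the lower panels regions as high or higher after the second stimulus, such as Birc6 with 3.43 and 3.83 in PL.

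Interferon-stimulated genes, which carry out the antiviral response, made up little of the set although many of their regions were higher in MP. Of 65 listed genes 56 had a region, 209 in all, and 127 of these (60.8%) were at least 0.8 higher in MP, against 12.3% of all regions. Of the 127, 119 were also at least 0.4 above MM with CpG, 80 with LPS and 30 with TNF, which left 7 that answered to polyI:C alone and 4 in the set (1.91% of 209, against 0.946% of all regions). These were the 2 Cmpk2 regions and 1 each near Ifit2 and Ifi44. Near Ifit2, which encodes an RNA-binding antiviral protein, the region chr19:34548331-34548832 was at 1.98 and 1.91 log2 CPM in MM, 3.16 and 2.91 in MP, 3.34 and 3.33 in PL, and 3.14 and 2.97 in PT, although MP minus MM was 0.70 under quantile normalization against 1.09 as deposited. Inside Ifi44, an interferon-induced gene (chr3:151739587-151740088), the values were 2.32 and 2.78 in MM, 3.25 and 3.62 in MP, 3.98 and 3.92 in PL, and 4.23 and 4.50 in PT.

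Among genes of double-stranded RNA sensing and the TLR3-TRIF pathway, 2 of 116 regions were in the set, near Ripk3 and Rnf135. Ripk3 encodes the kinase of necroptosis, which TRIF can engage, and its region was at 2.60 and 2.78 log2 CPM in MM, 4.00 and 3.71 in MP, 3.74 and 3.40 in PL, and 3.49 and 3.08 in PT. PL minus ML was 0.59 and PT minus MT 0.57, and under quantile normalization they were 0.47 and 0.46, below the limit of 0.5. Rnf135 encodes a ubiquitin ligase that activates RIG-I, and its region had 1.98 and 2.85 in MM, 3.38 and 3.54 in MP, 4.13 and 3.27 in PL, and 4.00 and 2.86 in PT. The PL and PT pairs were here far apart, and the lower PT library was level with the higher MM library.

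Interferon receptors, JAK-STAT members and IRF factors had 1 of 221 regions in the set, 8.72 kb from Socs1, which encodes an inhibitor of JAK kinases. It was at 1.13 and 0.90 log2 CPM in MM, 3.13 and 3.31 in MP, 1.58 and 2.26 in PL, and 2.00 and 1.74 in PT. MP minus MM was 2.20 ± 0.46 (SE), PL minus ML 0.58 and PT minus MT 1.00, and under quantile normalization these were 1.45, 0.045 and 0.41, the last 2 below the limit of 0.5. NF-kB subunits and feedback genes had 0 of 169 regions in the set, where 48 were at least 0.8 higher in MP and 45 of these also at least 0.4 higher in ML. Inflammatory cytokines and chemokines had 1 of 157, inside the annotated span of Il15, the cytokine that sustains NK cells and memory T cells. That region was at 3.43 and 3.64 in MM, 4.48 and 4.32 in MP, 4.20 and 3.90 in PL, and 4.23 and 4.42 in PT.

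Antigen presentation and costimulation had 2 of 116 regions, near Tnfsf18 and Pdcd1lg2. Tnfsf18 encodes the ligand of the receptor GITR on T cells, and its region was at 1.91 and 2.41 log2 CPM in MM, 3.67 and 3.64 in MP, 3.11 and 3.17 in PL, and 3.51 and 3.66 in PT. Pdcd1lg2 encodes PD-L2, a ligand of the inhibitory receptor PD-1, and its region was at 2.10 and 2.71 in MM, 3.50 and 3.34 in MP, 3.65 and 3.48 in PL, and 3.14 and 2.59 in PT. AP-1, BATF and immediate early factors had 0 of 170. Macrophage identity genes had 1 of 208, near Fcgr1, which encodes the high-affinity receptor for IgG, with 2.32 and 2.23 in MM, 3.45 and 3.51 in MP, 3.28 and 3.40 in PL, and 3.32 and 2.36 in PT. The lower PT library was there close to the MT libraries, at 2.31 and 2.21, and under quantile normalization PT minus MT was 0.42, below the limit.

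Of the markers of other cell types, dendritic cells had 0 of 21 regions in the set, neutrophils 0 of 13, T and NK cells 0 of 15, and fibroblasts, stroma and endothelium 0 of 20. B cell markers had 1 of 16, inside Ebf1, which encodes a factor that sets B cell identity. It was at 1.13 and 1.49 log2 CPM in MM, 3.33 and 3.17 in MP, 2.24 and 2.12 in PL, and 2.63 and 2.18 in PT, with PT minus MT of 1.22, or 0.74 under quantile normalization.

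CpG-first cells were measured in CL and CT libraries, which the rule did not use. CL and CT could be compared with each other free of the choice of regions. The median of CL minus CT was 0.0756 over the 509 regions and 0.0101 over all. Both CL libraries lay above both CT libraries at 131 of the 509, against 22.8% of all regions, and both CT above both CL at 77, against 19.3%. With limma and Benjamini-Hochberg adjustment, 0 of the 509 differed at an adjusted p under 0.05, where 0.242% of all regions (130) did, and voom on recovered reads also called 0. At an unadjusted p under 0.05, 48 of the 509 (9.43%) differed, against 10.7% of all regions. The median SE of CL minus CT was 0.208 over all regions. Within the set it varied, with 0.14 at one region inside Galnt7 and 0.45 at one inside Ppm1l. Differences of the size of these SEs were not detectable at a single region. Larger ones could also be missed, since the largest CL minus CT of the set, 1.19 ± 0.42 (SE) inside Cmpk2, was not called.

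Set against LPS or TNF alone, CpG-first cells had slightly higher levels at these regions. CL minus ML had a median of 0.351 and was above 0 at 425 of the 509 (83.5%), against 0.0359 and 53.9% over all regions. CT minus MT had a median of 0.241 and was above 0 at 382 (75%), against 0.0172 and 51.9%. The rule favoured low ML and MT levels, so part or all of these differences may follow from the choice of regions, which was not tested. Under quantile normalization the medians were 0.123 and -0.008, so the second did not keep its direction, and with all libraries shifted to one median they were 0.255 and 0.185. At the deposited scale PL minus CL had a median of 0.684 and PT minus CT one of 0.846, from libraries the rule used in part.

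With limma and Benjamini-Hochberg adjustment, 76 of the 509 (14.9%) were called higher in CL than in ML, where 9.95% of all regions were, and 1 lower, where 5.76% were. In CT against MT, 69 (13.6%) were called higher, against 10.6%, and 5 lower, against 5.65%. Because the rule drew on ML and MT, these counts are a description, and nothing is read from their difference to all regions. With quantile-normalized values 42 were higher and 12 lower in CL against ML, and 27 and 15 in CT against MT. Over all regions the calls in CL against ML were 5351 higher and 3100 lower as deposited, 4144 and 3744 with quantile-normalized values, and 4012 and 5336 after shifting all libraries to one median. In CT against MT they were 5727 and 3039, then 4320 and 3461, and 4973 and 4111. Leaving out any 1 library of the compared groups lowered the calls over all regions as well as those in the set. Each such fit rests on 1 library in a group that is assumed to vary like the others.

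The same limit holds at single regions, where the differences are given as descriptions without a test. The regions below were picked for higher values in CpG-first cells. Other named regions went the other way, such as those near Socs1 and Nat10, with CL minus ML of -0.74 and -0.40. At Birc6, CL minus ML was 2.11 ± 0.31 (SE) and CT minus MT 1.70 ± 0.31, and both CpG-first libraries lay above both of the others each time. At Ifi44 and Klrk1 the differences were larger with LPS second, with CL minus ML of 1.26 and 1.20 against CT minus MT of 0.28 and 0.41. Alpk1 had 1.35 and 0.99, but its MT libraries were far apart, at 2.10 and 0.69. Over the alternative settings CT minus MT there ranged from 0.28 to 1.69. At Pdcd1lg2, CL minus ML was 1.07 and CT minus MT 1.02, and at Fcgr1 they were 0.74 and 0.87. At both of these the CpG-first difference with TNF was above that of polyI:C-first cells, and PT minus CT was -0.35 and -0.29. These values rest largely on PT replicate 2. At Pdcd1lg2 the PT libraries were at 3.14 and 2.59 against 3.09 and 3.34 in CT, and at Fcgr1 at 3.32 and 2.36 against 3.02 and 3.24.

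The difference between the CpG effect with LPS and that with TNF was called at 0 of the 509 regions by limma, where 0.245% of all regions were called. At an unadjusted limma p under 0.05 it was called at 46 (9.04%), against 12.1%. This difference contains ML and MT, on which the rule drew, so these counts are a description and nothing is read from them.

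Other regions close to the set were called higher with polyI:C in a larger share than regions in general. Within 25 kb of the 509 lay 1487 regions outside the set, with a median of 3 around each and none around 90. In MP against MM, 338 of the 1487 (22.7%) were called higher by limma, against 14.3% of all regions, and 61 (4.10%) lower, against 8.28%. Within 10 kb the share called higher was 23.7% of 700 regions, and within 100 kb 18.8% of 4477. With a later stimulus the shares called higher were 24.1% in PL against ML, where 13.5% of all regions were, and 25.3% in PT against MT, where 15% were. The neighbours were not confined to polyI:C, since 21.9% were called higher in MC against MM, against 17.2%. In ML against MM 14.8% were, against 15%, and in MT against MM 6.72%, against 5.79%. Neighbours and the set share libraries, and no test of these shares was made.

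**Figure D5:**
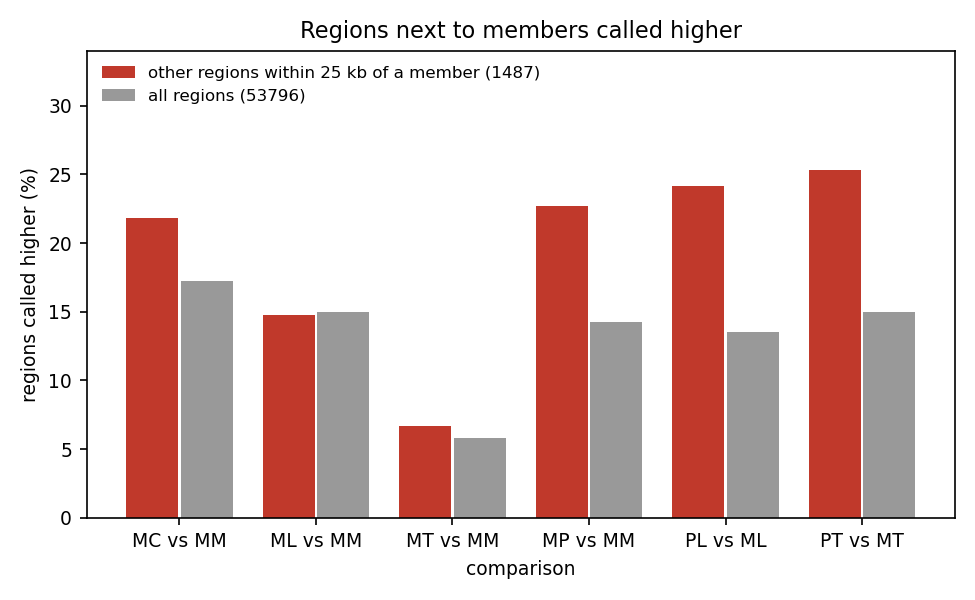
Share of regions called higher by limma (percent) in 6 comparisons, for the 1487 regions outside the set within 25 kb of it and for all 53796 regions. The 2 shares are 22.7% and 14.3% in MP against MM, and 14.8% and 15% in ML against MM.

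The 195 regions that failed both later conditions differed from the 509 in more than those conditions. Their median level was 3.27 log2 CPM in MM and 4.26 in MP, so they were more accessible at the start. MP minus MM had a median of 0.978, PL minus ML one of 0.212 and PT minus MT one of 0.172, and CL minus ML one of -0.0319. Of their positions, 28 of 190 (14.7%) were within 1 kb of a RefSeq start, against 26 of 498 (5.22%) in the 509. Start level, place and class moved together, and their parts were not tested.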

How the data were processed

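ATAC-seq was measured in 18 libraries. The authors deposited log2 CPM values per region, and the submitters' processing notes name build mm10 (GRCm38), featureCounts, MACS3 3.0.0b1, Picard, SAMtools 1.9 and Bowtie2 2.2.5; settings and the merging of regions are not given in the sources used here. Reads were recovered from the deposited values (whole within 0.01, prior of 3 reads on average). Coordinates are as deposited, each region spanning 501 bases from start to end.

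Limma 3.58.1 in R 4.3.3 fitted 9 group means to 17 samples, the MP pair averaged, with trended variances (8 residual and 26.6 prior degrees of freedom) and Benjamini-Hochberg adjustment over 53796 regions. Differences and SEs of named regions come from this fit. It was also run on simulated reads with changes in CL against CT only. Those reads had a fixed spread and no effects of single libraries, so that run does not test the SEs given here.

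Genes and promoters are from RefSeq GRCm38.p6. A genome sequence was not used here. Regions near named genes are the 10 with the largest MP minus MM, the 8 with the largest smaller value of PL minus ML and PT minus MT, up to 3 per gene list, genes with 3 or more, those at the threshold, and up to 6 within 1 kb of a gene end, predicted genes skipped in the first, second and last. Ifi44 as the fourth region of its list, the promoters of Ncoa7 and Cysltr2, and Ap2a2 stand outside this rule and were chosen after their values were seen, as were Gbp2b, Gbp4, Gbp6, Aim2, Ifi213 and Nod1. The members, the 13 gene lists and the tests were chosen with earlier results of these data known.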

Additional observations from a re-analysis of the deposited data

How the results depend on the processing

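The number of regions meeting the rule, 509, was 200 when the lowest 25% of regions by mean level were left out, 256 with each threshold stricter by 0.1 and 926 with each looser by 0.1. It was 449 to 549 with libraries left out, and 758 under quantile normalization. In CL against CT the regions called, 130, were 292 under quantile normalization, 196 with log2(CPM + 1), 54 with the level filter, 86 with no variance trend, 1142 with only the compared groups, 737 with voom and 0 to 7 with a library left out, namely 3 and 7 without CL replicate 1 and 2, and 2 and 0 without CT replicate 1 and 2. Of the 509, 2 were called with only the compared groups and 0 under every other setting run. In CL against ML the 8451 regions were 5230 with the level filter, 13584 with only the compared groups and 3359 to 4994 with a library left out. The 76 of the set called higher were 42 under quantile normalization, 32 with the filter, and 28, 44, 33 and 45 without CL replicate 1, CL replicate 2, ML replicate 1 and ML replicate 2. In CT against MT the 8766 regions were 5641 with the filter and 4712 to 5845 with a library left out. The 69 called higher were 27 under quantile normalization, 29 with the filter, and 36, 29, 35 and 38 without CT replicate 1, CT replicate 2, MT replicate 1 and MT replicate 2. For the difference of the CpG effects the 132 regions were 86 under quantile normalization, 58 with no trend, 294 with voom and 43 to 168 with a library left out, and 1 of the set was called without ML replicate 1 or without MT replicate 1. With each MP library as its own sample, 186 regions were called in CL against CT, and 90 and 77 of the set were called higher in CL against ML and CT against MT. Over all regions 9127 and 9355 were called there in either direction. The 338 neighbours called higher in MP against MM were then 439, and they were 217 with the filter and 283 to 351 with a library left out. The cause of these changes was not tested, beyond the filter's smaller number of regions. Replicate numbers did not pair the libraries in one direction across groups. The correlations of deviations were 0.11 for CL and CT and -0.16 for CT and MT. Over all pairs of groups they ran from -0.358 for CT and PT to 0.242 for MT and PT. Whether libraries of different groups shared effects that cross the replicate numbers was not tested, beyond the crossing of CT numbers below. With the replicate number as a block, 102 regions were called in CL against CT, 72 and 66 of the set were called higher in CL against ML and CT against MT, and 333 neighbours were. Over all regions the block gave 8217 calls in CL against ML and 8589 in CT against MT, in either direction. With the CT numbers crossed, an alternative chosen after seeing the data, as were the single-replicate sets and the difference of CpG effects, 71 of the set were called higher in CT against MT. That setting called 9125 of all regions in either direction. Of the 126 differences at named regions, 56 moved by more than the residual SD under quantile normalization and 0 changed sign. Motifs in the central 200 bases were not run. Depth limits single regions, at medians of 16 to 33 reads in libraries without polyI:C.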

Other observations

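The 6 regions below were picked one by one after their values were seen, belong to no list used above, and show nothing about how many such genes the set holds. The guanylate-binding proteins are interferon-induced GTPases that act on intracellular pathogens, and regions of the set lay near 3 of their genes. The region near Gbp2b (chr3:142590350-142590851) was at 4.09 and 4.02 log2 CPM in MM, 5.26 and 5.51 in MP, 4.92 and 5.00 in PL, and 5.02 and 4.76 in PT. That near Gbp4 (chr5:105153794-105154295) was at 2.75 and 2.57 in MM, 1.09 and 1.64 in ML, 1.56 and 1.75 in MT, 3.40 and 3.64 in MP, 3.34 and 3.48 in PL, and 3.20 and 3.03 in PT. Its large difference over LPS alone, 2.05, thus came with a level below that of medium in LPS and TNF, and CpG-first cells were at 3.05 and 3.04 in CL and 2.83 and 2.64 in CT. Gbp6 (chr5:105301374-105301875) had MP minus MM of 0.97. These genes have close copies, and how reads that fit several places were treated is not given in the sources used here.

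Of DNA and peptidoglycan sensors, the region inside Aim2 (chr1:173441027-173441528), which encodes a DNA-binding inflammasome sensor, was at 2.86 and 3.23 log2 CPM in MM, 4.33 and 4.01 in MP, 3.57 and 3.98 in PL, and 4.26 and 4.22 in PT. In the same gene cluster a region inside Ifi213 (chr1:173579803-173580304) had MP minus MM of 2.28, with the same limit on close copies. At the promoter of Nod1, a sensor of bacterial cell wall fragments (chr6:54972353-54972854), the values were 4.25 and 4.32 in MM, 5.28 and 5.49 in MP, 4.82 and 5.16 in PL, and 4.92 and 4.63 in PT. The lower PT library was level with the CL libraries there, at 4.65 and 4.76.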
